A study of Mus musculus with 28 samples.

Results

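Kidneys of female mice that carry the Q form of aquaporin-3 (Aqp3), which the labels call the acetylated mimetic, were compared with kidneys of female wild-type (WT) mice. The members were chosen by the sex and genotype in the sample titles, which gave 5 female Q and 5 female WT libraries, 10 of the 28 in the series. All 10 came from mice without treatment on a 12 h light and 12 h dark cycle with free food and water, killed between 2 and 5 h of zeitgeber time. Whole kidneys were freed of the capsule and frozen, and polyadenylated RNA was sequenced. Age, strain, the altered residue and how the allele was made were not given in the sources used here. Nothing in the labels says that each library came from its own animal, so the p-values measure the spread between libraries, which may in part be technical. Male Q and male WT, 5 libraries each, were used for a test of whether the Q effect differed between the sexes, and the other libraries entered the fit only to estimate the spread.

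Aquaporin-3 is a channel for water and glycerol on the basolateral side of principal cells in the collecting duct. Water enters these cells through aquaporin-2 in the apical membrane, which vasopressin moves to the surface, and leaves through aquaporin-3 and aquaporin-4. Acetylation neutralises the charge of a lysine side chain, and the mimetic is meant to hold the channel in that state. Cells of the inner medulla, where urine is concentrated, hold sorbitol, betaine, inositol and other osmolytes against the salt and urea around them.

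Total counts were 14825417 to 19916030 in female WT and 16159881 to 20178003 in female Q libraries. The label female was checked with Xist, the RNA that silences an X chromosome, and with 4 Y-linked genes (Ddx3y, Uty, Kdm5d and Eif2s3y). The Y-linked sum was 0.468 to 1.32 CPM (counts relative to the library total, scaled by TMM) in the 10 libraries against 121 to 164 CPM in 15 male libraries. Xist was 0.515 CPM in female WT replicate 2 and 214 to 435 CPM in the other 12 female libraries, so this library lacked Xist at the female level and Y-linked RNA at the male level. In it Kdm6a, an X-linked gene that escapes silencing, was 19.3 CPM against 24.5 to 35.7 in other females and 8.15 to 19.2 in males. Other X-linked genes checked were Kdm5c, Ddx3x and Eif2s3x. Kdm5c at 43.4 CPM and Ddx3x at 199 CPM lay below the other females (49.7 to 80.3 and 248 to 334). Eif2s3x at 53.3 CPM lay within the other females (44.8 to 90.8), and these last genes all lay within the male range. Female Q replicate 5 had 3.94% of its counts in mitochondrially encoded genes against 9.92 to 11.6% in the other 9 libraries. Results are therefore also given without WT replicate 2, without Q replicate 5 and without both. The altered codon cannot be read from gene counts, and the genotypes were not checked. The kidney label was met, since the summed proximal tubule markers lay at 24200 to 31300 CPM in every one of the 10 libraries.

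Aqp3 itself, on chromosome 4 (ENSMUSG00000028435), was read at 93.5, 132, 112, 123 and 129 CPM in WT replicates 1 to 5 and at 108, 122, 101, 124 and 101 CPM in Q replicates 1 to 5. The groups overlapped over nearly their whole range. The log2 fold change, Q over WT, was -0.09 (SE 0.101, 95% interval -0.29 to 0.12). It was -0.01 without WT replicate 2 and Q replicate 5, and each library held at least 1484 Aqp3 counts.

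No gene passed the edgeR quasi-likelihood test at an adjusted p under 0.05 over 17573 genes. This gave 0 called genes (0%), and every edgeR adjusted p was 1. At an unadjusted p under 0.05 there were 516 genes (2.94%), 223 higher in Q (1.27%) and 293 lower (1.67%), where 879 would be 5% of the genes tested. DESeq2 called 1 of 17571 genes (0.00569%), Lamb3, and had 575 at an unadjusted p under 0.05. The 95% intervals give the sizes of difference that these libraries left possible. Of 9593 genes with a mean of at least 10 CPM, 99% had a 95% interval that lay inside a 2-fold change in either direction and 93.6% had one inside a 1.5-fold change. Of all 17569 genes with a standard error, 81.6% and 63.1% did. On simulated counts for this comparison, edgeR recovered 54% of 50 genes changed 1.5-fold and 94% of 50 changed 2-fold, among 17175 genes tested. In the same run 50 genes each were also changed 3-fold and 4-fold, and all changed genes had a mean of at least 1 CPM. No simulated library was made to stand apart, so recovery in the real libraries may be lower. Recovery with fewer changed genes was not tested.

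The genes with the smallest unadjusted p and a mean of at least 1 CPM, 12 in each direction, are described as estimates that were not called. Lamb3 on chromosome 1 (ENSMUSG00000026639), the beta chain of the basement membrane laminin that anchors epithelia, was 8.82, 4.4, 7.02, 9.95 and 11.1 CPM in WT replicates 1 to 5 and 3.23, 5.06, 1.65, 2.53 and 1.85 CPM in Q replicates 1 to 5. Q replicate 2 lay above WT replicate 2, and otherwise the groups were apart. The log2 fold change was -1.53 (SE 0.331, 95% interval -2.21 to -0.85), with an edgeR unadjusted p of 8.09e-05, an edgeR adjusted p of 1 and a DESeq2 adjusted p of 0.0327. It was -1.41 without Q replicate 5 and -1.69 without WT replicate 2. Its promoter is shown as the upstream sequence of the single gene that either tool called. RefSeq on GRCm38.p6 gives it 2 starts, and the 250 bases before 1 of them, chr1:193301744-193301993 on the plus strand, hold the letters TTTCCA (capitals), the reverse complement of the motif TGGAAA taken up with the osmolyte genes below.
Lamb3: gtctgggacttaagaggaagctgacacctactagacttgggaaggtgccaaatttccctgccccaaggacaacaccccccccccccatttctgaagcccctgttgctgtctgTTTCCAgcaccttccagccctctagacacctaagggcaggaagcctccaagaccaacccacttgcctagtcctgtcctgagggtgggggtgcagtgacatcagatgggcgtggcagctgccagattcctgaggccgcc

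Itga2, a subunit of a receptor for collagen and laminin, was 2.96, 1.08, 2.04, 2.17 and 2.26 CPM in WT and 0.608, 1.06, 0.425, 0.203 and 0.28 CPM in Q, in replicate order. All 5 Q libraries lay below all 5 WT libraries, replicate 2 of each group being the nearest, as in 59 of all tested genes (0.336%), and the lowest library held 4 counts. Its log2 fold change was -2.02 (SE 0.519, 95% interval -3.08 to -0.96). Muc20, a membrane mucin of the kidney, was 18.1 ± 4.54 CPM (SD) in the 5 WT and 8.0 ± 3.48 CPM in the 5 Q libraries, and Gcnt3, an enzyme that branches the sugar chains of mucins, was 1.9 ± 1.04 CPM (SD) in the 5 WT and 0.472 ± 0.485 CPM in the 5 Q libraries with as few as 2 counts in a library. Slco4a1, an organic anion transporter, was 26.9 ± 8.46 CPM (SD) in the 5 WT and 14.4 ± 5.54 CPM in the 5 Q libraries, and Map6, a microtubule-stabilising protein, was 2.68 ± 1.3 CPM (SD) in the 5 WT and 1.01 ± 0.377 CPM in the 5 Q libraries. In Lamb3, Itga2, Slco4a1, Map6, Muc20 and Gcnt3, and in Tm6sf1 and Cacnb3 below, the highest Q library was Q replicate 2. The lowest WT library was WT replicate 2 in Lamb3, Itga2, Slco4a1, Map6 and Gcnt3, and WT replicate 3 in Muc20, Tm6sf1 and Cacnb3. For the summed inner medullary and urothelial markers given below, Q replicate 2 was likewise the highest Q and WT replicate 2 the lowest WT library. The part of those markers in these estimates was not tested.

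The other 6 genes of the lower group were Tgif1, Pim1, Tmem140, Ptpn6, Tm6sf1 and Cacnb3. Tgif1, a homeobox repressor in TGF-beta signalling, was 17.6, 17.7, 18.4, 14.9 and 16.9 CPM in WT and 13, 11.6, 10.6, 13.3 and 10.3 CPM in Q, so that the Q libraries lay below every WT library. Pim1, a serine/threonine kinase, was 18.2, 21.3, 18.3, 17.9 and 22.6 CPM in WT and 12.9, 13.5, 15.8, 16.3 and 11.8 CPM in Q, again without overlap. Tmem140 and Ptpn6, the latter a tyrosine phosphatase of blood cells, did not overlap either. Their log2 fold changes were -0.54 (SE 0.143) for Tgif1, -0.48 (SE 0.142) for Pim1, -0.51 (SE 0.15) for Tmem140 and -0.30 (SE 0.0905) for Ptpn6. Tm6sf1 had one of -1.0 (SE 0.262), and Cacnb3, a calcium channel subunit, one of -0.54 (SE 0.159) that was -0.38 without Q replicate 5, in which it was 5.43 CPM.

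In the higher group all 12 estimates were under 2-fold. Lrrc58, a leucine-rich repeat protein, was 66.1, 57.8, 61, 58.5 and 57.5 CPM in WT and 67.7, 73.8, 82.8, 80.1 and 80.8 CPM in Q, a log2 fold change of 0.36 (SE 0.0883, 95% interval 0.18 to 0.54). Foxn2, a forkhead transcription factor, was 7.31, 7.49, 7.87, 7.9 and 6.57 CPM in WT and 9.49, 9.67, 10.4, 8.81 and 10.4 CPM in Q, a log2 fold change of 0.39 (SE 0.134, 95% interval 0.12 to 0.67). Both genes, and Rbm12b2, an RNA-binding protein at 5.52 ± 0.358 CPM (SD) in the 5 WT and 7.89 ± 1.1 CPM in the 5 Q libraries, had every Q library above every WT library, as had 34 of all tested genes (0.193%). Rbm12b2 has a close copy beside it in the genome, so its counts are uncertain. Tsc22d3, the glucocorticoid-induced leucine zipper, was 22.5, 23.8, 22.5, 26 and 24.3 CPM in WT and 41.1, 41.4, 38.5, 25.2 and 39.2 CPM in Q. Of the Q libraries, replicate 4 lay within the WT range and the other 4 above it. The log2 fold change was 0.64 (SE 0.196, 95% interval 0.24 to 1.04).

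Ccn2, a secreted matrix-associated protein, was 51.6 ± 13.5 CPM (SD) in the 5 WT and 84.4 ± 13.7 CPM in the 5 Q libraries, and Pim3, a kinase related to Pim1, was 163 ± 20.2 CPM (SD) in the 5 WT and 236 ± 53.5 CPM in the 5 Q libraries. Noct, a rhythmically expressed phosphatase, had an estimated log2 fold change of 0.63 (SE 0.175), and Kcnj12, an inwardly rectifying potassium channel, had one of 0.80 (SE 0.206). Pim1 and Pim3, 2 kinases of one family, thus had estimates of opposite sign, at -0.48 and 0.53. Log2 fold changes were 0.30 (SE 0.098) for Nufip2, an RNA-binding protein, 0.44 (SE 0.146) for Utp23, a factor of ribosome assembly, and 0.91 (SE 0.288) for Ccdc122. Katnbl1, related to a subunit of the microtubule-severing katanin, had one of 0.40 (SE 0.127) that was 0.25 without Q replicate 5, at 14.9 CPM the highest of its group.

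**Figure D1:**
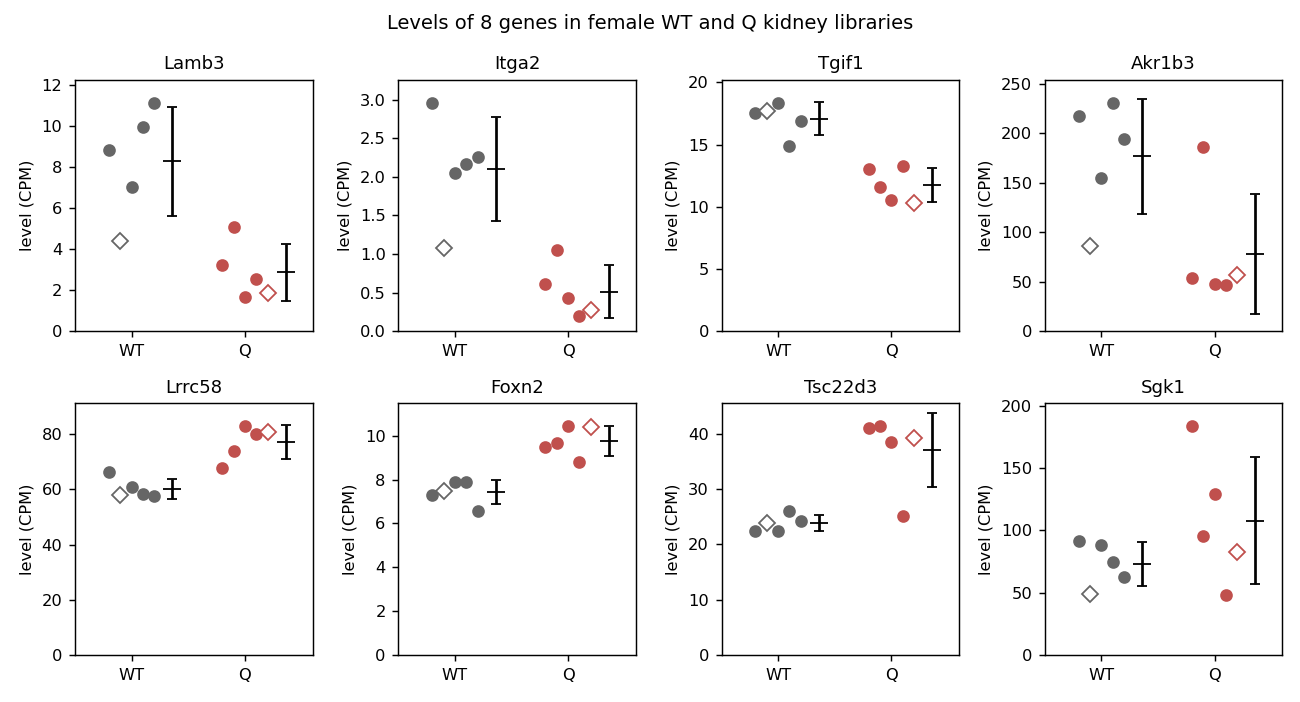
Level (TMM-scaled CPM, axes from 0) of 8 genes in 5 female WT and 5 female Q libraries. Points are libraries in replicate order, open diamonds are WT replicate 2 and Q replicate 5, and bars show the mean and SD; the groups do not overlap for Itga2, Tgif1, Lrrc58 and Foxn2, and Q replicate 2 stands at 186 CPM for Akr1b3 among Q libraries at 46.2 to 56.9 CPM.

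Q against WT in males shares no library with the female comparison. Male Q replicate 4 had 7.74% of its counts in mitochondrially encoded genes, against 9.56 to 11.7% in the other male libraries. It was kept in the fit, and the male comparison was not repeated without it. Of the 12 genes with the smallest p that were higher in female Q, 9 had a positive estimate in males, as had 51.2% of all tested genes. Of the 12 that were lower, 6 had a negative male estimate, beside 48.8% of all tested genes. In males 897 genes (5.1%) had an unadjusted p under 0.05, and 0 of these 24 genes did so in the female direction, where 2.93% of all tested genes were higher and 2.17% lower in males at that p. Lamb3 had a male log2 fold change of 0.16 and Gcnt3 one of 1.07, against -1.53 and -2.01 in females. The edgeR test of the difference between the sexes called 0 of 17573 genes (0%), with 547 (3.11%) at an unadjusted p under 0.05. For Lamb3 that difference was -1.69 (SE 0.463, edgeR unadjusted p = 0.00107, edgeR adjusted p = 0.999), and for Gcnt3 it was -3.09 (SE 0.899). These genes were chosen for their female values, which also enter the difference, and only their male values are free of that choice.

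**Figure D2:**
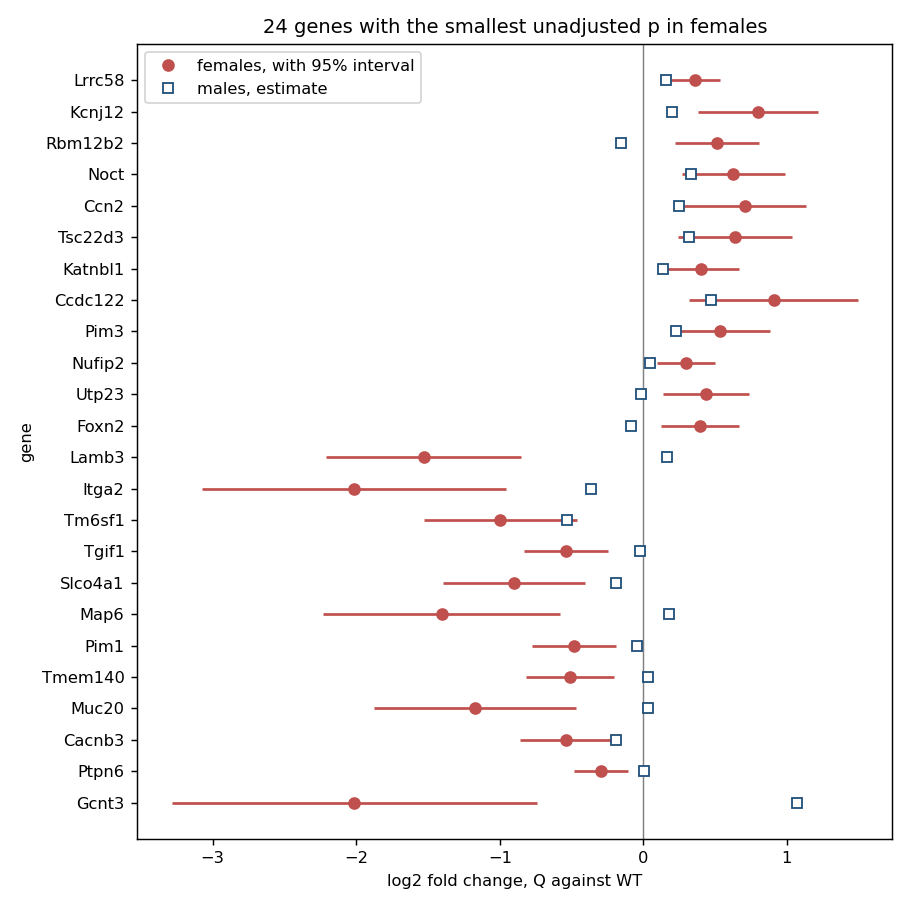
Log2 fold change of Q against WT (horizontal axis) for the 24 genes with the smallest unadjusted p in females, 12 higher and 12 lower. Filled circles with bars are female estimates with their 95% interval and open squares are male estimates; the male squares lie on the female side for 9 of the 12 higher and 6 of the 12 lower genes, and none of the 24 passed the edgeR test.

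The aquaporins as a family were compared next. Of 9 tested members, Aqp3 included, 8 had a negative estimate, with a median log2 fold change of -0.21 beside -0.0045 over all tested genes, of which 51.3% were negative. The median was -0.10 without WT replicate 3. Aqp1, through which water leaves the proximal tubule and the descending limb, was 968, 1009, 1255, 1201 and 1076 CPM in WT and 979, 840, 931, 1060 and 837 CPM in Q, a log2 fold change of -0.25 (SE 0.0954, 95% interval -0.44 to -0.05). Aqp2 was 323, 478, 357, 597 and 658 CPM in WT and 312, 525, 209, 347 and 324 CPM in Q. Its highest value was in WT replicate 5 and its lowest in Q replicate 3, with the groups overlapping between 323 and 525 CPM, and its log2 fold change was -0.49 (SE 0.245, 95% interval -0.99 to 0.01). Aqp5 was 0.766 ± 0.332 CPM (SD) in the 5 WT and 0.335 ± 0.174 CPM in the 5 Q libraries with as few as 4 counts in a library. Aqp1 and Aqp5 were the 2 members at an unadjusted p under 0.05, and 0 were called. For Aqp1 the male estimate was -0.23 and for Aqp2 -0.05. In males 7 of the 9 members had a negative estimate, with a median of -0.18, beside 48.8% of all tested genes.

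The other aquaporins had intervals that included 0. Aqp4, the second basolateral channel of principal cells, had an estimated log2 fold change of -0.24 (SE 0.263, 95% interval -0.78 to 0.31), or -0.15 without Q replicate 2. Aqp7, a glycerol channel of the proximal tubule, had one of -0.21 (SE 0.109) that was -0.08 without WT replicate 3, and Aqp11, an intracellular aquaporin, one of -0.09 (SE 0.0934). Aqp6, the intercalated cell member, was 146 CPM in WT replicate 2 and 66.3 to 75.1 CPM in the other WT libraries. Its estimate was -0.01 (SE 0.203) with all libraries and 0.27 without that one. Aqp8, at 0.647 ± 0.361 CPM (SD) in the 5 WT and 0.753 ± 0.287 CPM in the 5 Q libraries, had an estimate of 0.22 (SE 0.412) that was -0.02 without WT replicate 2.

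Principal cell markers, a list that includes Aqp2, Aqp3 and Aqp4, were compared next. Of 13 tested members 12 had a negative estimate, beside 51.3% of all tested genes. The list median was -0.09 with all libraries. The median was -0.04 without WT replicate 2 and had the other sign, at 0.02, without both WT replicate 2 and Q replicate 5. At an unadjusted p under 0.05, 1 was higher and 1 lower, where 1.27% and 1.67% of all tested genes were. The sodium channel subunits Scnn1a, Scnn1b and Scnn1g had log2 fold changes of -0.04, -0.11 and -0.003. Elf5, a transcription factor of these cells, was 8.19, 5.34, 5.63, 9.25 and 7.57 CPM in WT and 3.32, 7.17, 3.35, 3.09 and 3.58 CPM in Q, with Q replicate 2 among the WT values and the other 4 Q libraries below all of them. Hsd11b2, the enzyme that inactivates glucocorticoid in aldosterone target cells, was 149 ± 6.93 CPM (SD) in the 5 WT and 170 ± 17.7 CPM in the 5 Q libraries, a log2 fold change of 0.19 (SE 0.0921). In whole kidney RNA, fewer cells of a type and less RNA per cell cannot be told apart.

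Vasopressin and cAMP signalling genes had a median of -0.02 over 13 tested members, 6 positive and 7 negative, and 0 reached an unadjusted p under 0.05. Adcy6, an adenylyl cyclase downstream of the vasopressin receptor, had an estimated log2 fold change of -0.03 (SE 0.162), and Prkaca, the catalytic subunit of protein kinase A, had one of 0.02 (SE 0.0921). Creb1, the transcription factor that this kinase phosphorylates, was 27.7 ± 2.04 CPM (SD) in the 5 WT and 32.3 ± 3.09 CPM in the 5 Q libraries. Prkar2b, a regulatory subunit of the kinase, was 7.88 ± 4.48 CPM (SD) in the 5 WT and 4.79 ± 0.939 CPM in the 5 Q libraries, with 15.4 CPM in WT replicate 5. Its log2 fold change of -0.72 (SE 0.401) was -0.32 without that library. The vasopressin receptor Avpr2 was too low to be tested.

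The difference between the groups in the summed level of thin limb and inner medulla genes lay mostly in Akr1b3 and Cryab. The sum was 822, 660, 759, 946 and 841 CPM in WT replicates 1 to 5 and 576, 852, 538, 606 and 566 CPM in Q replicates 1 to 5. Q replicate 2 lay among the upper WT values and the other 4 Q libraries lay below all WT libraries. The log2 ratio of the group means was -0.36, and it was -0.33 without Q replicate 5, -0.42 without WT replicate 2 and -0.39 without both. Akr1b3 and Cryab made up 152 of the 178 CPM between the group means. Without these 2 genes, a choice made after seeing the values, the sum was 436, 446, 449, 508 and 478 CPM in WT and 425, 503, 397, 465 and 398 CPM in Q, with a log2 ratio of -0.08. The groups then overlapped, with Q replicate 4 as well as Q replicate 2 among the WT values. By member, 8 of 13 tested genes had a negative estimate, beside 51.3% of all tested genes. The list median of -0.20 was -0.09 without Q replicate 5. At an unadjusted p under 0.05, 4 were lower, where 1.67% of all tested genes were, and 0 were called.

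Those 4 genes were Akr1b3, Cryab, Sptssb and Slc4a11. Akr1b3, which encodes aldose reductase and so makes sorbitol from glucose, was 217, 86, 155, 231 and 194 CPM in WT and 53.7, 186, 48.1, 46.2 and 56.9 CPM in Q. The other 4 Q libraries lay below every WT library, while Q replicate 2 lay above WT replicates 2 and 3. Its log2 fold change was -1.18 (SE 0.381, 95% interval -1.97 to -0.39), and -1.78 without Q replicate 2. Cryab, a small heat shock protein abundant in the inner medulla, was 168, 129, 155, 207 and 169 CPM in WT and 97.7, 164, 92.2, 94.5 and 111 CPM in Q, the same arrangement of libraries, with a log2 fold change of -0.57 (SE 0.227). Sptssb, a subunit for sphingolipid synthesis, had one of -0.85 (SE 0.394) and Slc4a11, a membrane transporter of the thin descending limb, one of -0.32 (SE 0.156).

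The other members of this list had an unadjusted p over 0.05. Slc14a2, a urea transporter of the inner medullary collecting duct, had an estimated log2 fold change of -0.37 (SE 0.195). Estimates were above 0 for Cldn19, a tight junction claudin, at 0.07, and for Wfdc15b at 0.11. In males the estimate was 0.36 for Akr1b3 and -0.04 for Cryab. Of the 13 tested members of the list, 9 had a negative male estimate, with a male median of -0.08. Of all tested genes, 48.8% had a negative male estimate. The difference between the sexes for Akr1b3 was -1.53 (SE 0.534, edgeR unadjusted p = 0.00858, edgeR adjusted p = 0.999). Akr1b3 was named for its small female p, and its female values also enter this difference, so that p is not free of the choice.

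Urothelial genes, expressed in the lining of the renal pelvis, had a low sum in the same 4 Q libraries. It was 82.2, 48.8, 77.3, 54.7 and 86.5 CPM in WT and 44.4, 84.2, 44.1, 31.8 and 42.4 CPM in Q. Q replicate 2 was again the single Q library in the upper part of the WT range, and the other 4 lay below all WT libraries. The log2 ratio of the means was -0.50, and -0.78 without Q replicate 2. Of 10 members 9 had a negative estimate, beside 51.3% of all tested genes. The list median was -0.50, and -0.46 without Q replicate 5, -0.77 without Q replicate 2 and -0.59 without WT replicate 2. Krt5, the keratin of basal cells, was 6.42, 3.32, 6.72, 2.93 and 6.17 CPM in WT and 2.62, 6.17, 2.83, 0.912 and 1.01 CPM in Q, and was the 1 member at an unadjusted p under 0.05. Its log2 fold change was -0.92 (SE 0.419), and -1.45 without Q replicate 2. The uroplakins Upk1a, Upk1b, Upk2, Upk3a and Upk3b, which form the plaques of the apical surface, had log2 fold changes between -0.62 and -0.25. That of Upk3a was -0.56 without Q replicate 2 and -0.08 without WT replicate 3.

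**Figure D3:**
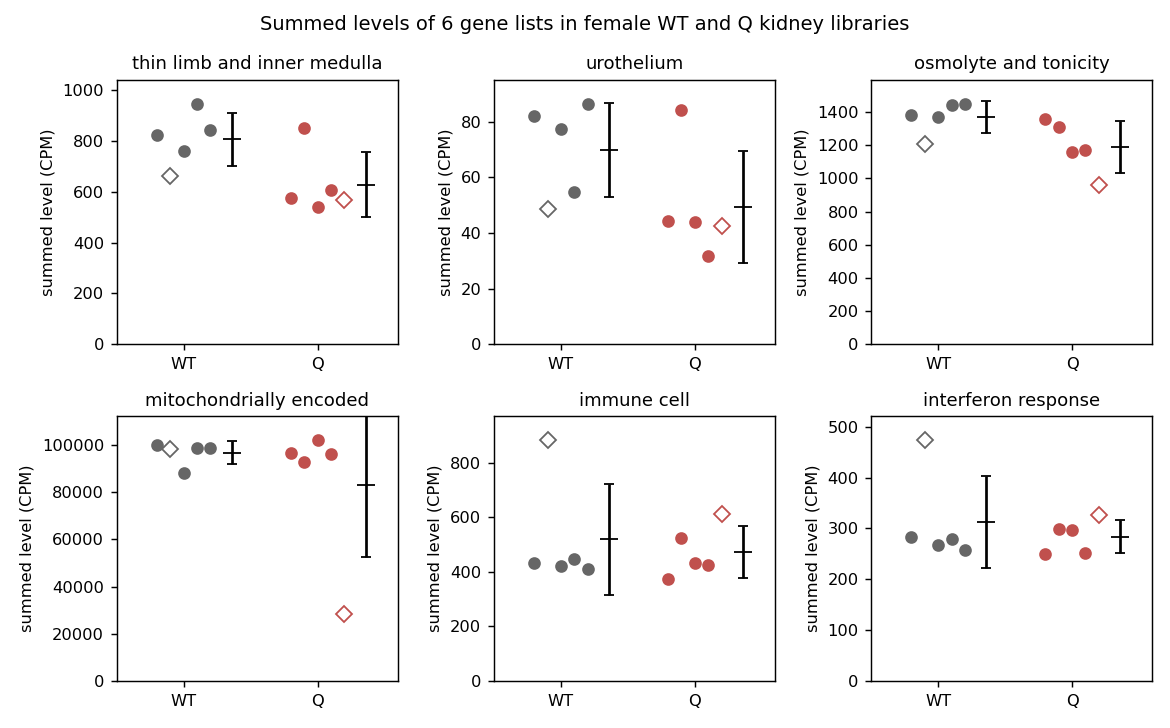
Summed level (TMM-scaled CPM, axes from 0) of 6 gene lists in 5 female WT and 5 female Q libraries, with open diamonds for WT replicate 2 and Q replicate 5 and bars for mean and SD. Q replicate 2 lies among the WT libraries for the inner medulla (852 CPM) and urothelium (84.2 CPM), Q replicate 5 is apart in mitochondrially encoded genes (28500 CPM), and WT replicate 2 in immune (882 CPM) and interferon (473 CPM) genes.

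Osmolyte and tonicity genes, which share 2 members with the inner medullary list, were summed at 1380, 1210, 1370, 1440 and 1450 CPM in WT and 1360, 1310, 1160, 1170 and 958 CPM in Q. The groups overlapped, and the lowest value was that of Q replicate 5. The log2 ratio of the means was -0.20, and -0.13 without Q replicate 5. Of 15 members 12 had a negative estimate, beside 51.3% of all tested genes, and the list median was -0.15. At an unadjusted p under 0.05 there was 1 higher and 1 lower member, where 1.27% and 1.67% of all tested genes were. The transporters that bring in osmolytes did not go one way. Slc6a12, the betaine transporter, was 3.02, 1.59, 5.48, 6.03 and 5.47 CPM in WT and 1.4, 5.23, 1.09, 2.58 and 1.34 CPM in Q, a log2 fold change of -0.90 (SE 0.481, 95% interval -1.89 to 0.09). It was chosen after its values were seen, and Q replicate 2 was again the highest of its group, without which the estimate was -1.42. Slc5a3, the inositol transporter, had an estimated log2 fold change of 0.20 (SE 0.155) that was 0.12 without Q replicate 5, and Slc6a6, the taurine transporter, had one of -0.15 (SE 0.166) that was -0.05 without it. Nfat5, the transcription factor that responds to tonicity, had one of -0.09 (SE 0.163).

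Nfat5 binds tonicity elements with the core TGGAAA, so the promoters of the list were searched for these 6 letters on both strands. RefSeq windows from 250 bases before to 50 after a start were found for 9 of the 15 genes, and 6 of their 20 windows (30%) held the letters, against 21.4% of 32851 windows of all genes. By gene, 4 of those 9 held the letters in a window, against 6472 of 27025 genes. Slc6a12, an osmolyte transporter chosen after its values were seen, is shown as an example with a match. Of its 5 starts 1 had it, and the 250 bases before that start, chr6:121342324-121342573 on the plus strand of GRCm38.p6, hold it 75 bases before the start (capitals).
Slc6a12: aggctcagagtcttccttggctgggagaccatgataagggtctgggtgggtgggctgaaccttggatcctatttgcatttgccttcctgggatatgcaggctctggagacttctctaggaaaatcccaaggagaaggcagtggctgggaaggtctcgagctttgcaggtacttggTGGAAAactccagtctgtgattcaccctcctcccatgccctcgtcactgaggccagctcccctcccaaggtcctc

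The Lamb3 window shown above holds the same letters on the other strand, 138 bases before its start. A match of 6 letters is a description of the sequence, and binding was not measured.

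Genes that respond to the steroids aldosterone and glucocorticoid were higher in estimate for 10 of 15 tested members. The other 5 had a negative estimate, beside 51.3% of all tested genes. The median log2 fold change was 0.20, and 0.25 without Q replicate 5, 0.22 without WT replicate 2 and 0.15 without Q replicate 3. Their sum was 1210, 1130, 1160, 1140 and 1080 CPM in WT and 1630, 1090, 1510, 1180 and 1030 CPM in Q. Q replicates 1 and 3 lay above all WT libraries, and the other Q libraries lay at 1030 to 1180 CPM. At an unadjusted p under 0.05 there were 4 members, Tsc22d3, Per1, Zbtb16 and Sgk1, all higher, and 0 were called. Of all tested genes, 1.27% were higher at that p. Sgk1, a kinase that sustains sodium uptake, was 91.9, 48.6, 87.9, 74.4 and 62.2 CPM in WT and 184, 95.5, 129, 48.2 and 82.9 CPM in Q. The Q values ran from below the lowest WT library to above the highest, and the log2 fold change of 0.56 (SE 0.272) was 0.29 without Q replicate 1. Per1, a clock gene that glucocorticoid induces, was 15.7, 20.6, 10.7, 15.9 and 8.63 CPM in WT and 34.1, 18.5, 33.7, 22.8 and 12.1 CPM in Q. Zbtb16, a transcription factor induced by glucocorticoid, was 15.3 CPM in Q replicate 3 and 1.17 to 4.39 CPM in the other Q libraries, and its log2 fold change of 1.29 (SE 0.567) was 0.18 without that library. Fkbp5, a chaperone of steroid receptors, was 63.6 CPM in the same Q replicate 3 and 22.1 to 34.6 CPM in the other Q libraries, and its log2 fold change of 0.55 (SE 0.271) was 0.21 without that library. The receptors themselves, which were also on this list, had log2 fold changes of -0.05 (SE 0.0987) for Nr3c1 and -0.16 (SE 0.144) for Nr3c2. Sgk1 and Per1 belong to other lists too, and the circadian clock list as a whole had a median of -0.01, or 0.24 without WT replicate 2. In males 3 of the 15 members of the steroid list had a negative estimate, beside 48.8% of all tested genes. The male median of that list was 0.12.

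Glycerol handling and the enzymes of lysine acetylation were described because aquaporin-3 carries glycerol and the allele mimics acetylation. Glycerol genes had a median of -0.02 over 11 members, with 0 at an unadjusted p under 0.05. Gk, glycerol kinase, had an estimated log2 fold change of 0.09 (SE 0.133), and Pck1, an enzyme of gluconeogenesis, had one of 0.03 (SE 0.24). Gpd1, glycerol-3-phosphate dehydrogenase, was 352, 410, 410, 350 and 459 CPM in WT and 419, 368, 336, 343 and 206 CPM in Q. Its log2 fold change of -0.24 (SE 0.122) was -0.11 without Q replicate 5, the lowest library. Lipe, a lipase that releases glycerol, had one of -0.37 (SE 0.191) that was -0.19 without WT replicate 5.

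The 20 acetyltransferases and deacetylases had a median of -0.02, and 1 of them, Sirt2, was lower at an unadjusted p under 0.05. Sirt2, a cytoplasmic deacetylase, was 91.6, 98.5, 97.3, 94.2 and 92.8 CPM in WT and 90.8, 88, 91, 87.2 and 55.8 CPM in Q. The groups did not overlap, by a margin of 91 CPM in the highest Q to 91.6 CPM in the lowest WT library. All Q libraries lay below all WT libraries in 59 of all tested genes (0.336%). Q replicate 5 was far below the others for Sirt2, and the log2 fold change of -0.20 (SE 0.0937) was -0.09 without it. Kat5, an acetyltransferase, did not overlap either, with 32.2 CPM in the highest Q and 32.5 CPM in the lowest WT library. Its log2 fold change of -0.23 (SE 0.125) was -0.11 without Q replicate 5. The mitochondrial deacetylase Sirt3 and the class I deacetylase Hdac1 had log2 fold changes of -0.14 (SE 0.0973) and of -0.12 (SE 0.090) respectively, and of -0.05 and -0.07 without Q replicate 5. Ep300 and Crebbp, the paired large acetyltransferases, had -0.02 (SE 0.168) and 0.11 (SE 0.156).

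Mitochondrially encoded genes stood apart in 1 Q library. The gene mt-Cytb, a subunit of respiratory complex III, was 22110, 21580, 19860, 22940 and 22270 CPM in WT and 21800, 20330, 22740, 21320 and 5214 CPM in Q. Q replicate 5 was far below the other 9 libraries, which overlapped. The list median was -0.21 with all libraries and 0.03 without Q replicate 5. Nuclear respiratory chain genes had a median of 0.05, or -0.03 without that library. Reads of mt-Co2, mt-Co3 and mt-Atp6 can also match nuclear copies of the mitochondrial genome, so their levels are uncertain.

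Immune cell and interferon genes stood apart in WT replicate 2. Immune markers summed to 434, 882, 421, 447 and 412 CPM in WT and 373, 524, 432, 425 and 611 CPM in Q, and interferon genes to 283, 473, 267, 280 and 258 CPM in WT and 249, 298, 296, 251 and 326 CPM in Q. WT replicate 2 was the highest of the 10 in both. Of the immune members 12 had a negative estimate and 4 a positive one, up to 1.15, beside 51.3% negative over all tested genes. At an unadjusted p under 0.05, 4 immune members were lower, where 1.67% of all tested genes were. These are the immune genes named below. The immune median of -0.23 over 16 members was 0.06 without WT replicate 2, and the interferon median of -0.17 over 14 members was 0.13. C1qc, a complement subunit made by macrophages, had an estimated log2 fold change of -0.42 (SE 0.193), or -0.12 without it. Adgre1, the macrophage marker F4/80, had one of -0.47 (SE 0.201) and -0.28 without it, and Gbp2, an interferon-induced GTPase, -0.53 (SE 0.243) and -0.05. Itgam, an integrin of myeloid cells, was at or under 1.31 CPM in every library. Its log2 fold change was -1.41 (SE 0.459), and -0.91 without WT replicate 2 and Q replicate 5. Cd68, a lysosomal protein of macrophages, had one of -0.55 (SE 0.257).

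Adipocyte genes, a sign of perirenal fat in the sample, varied widely within both groups. Plin1, which coats lipid droplets, was 2.33, 1.22, 8.12, 1.35 and 14.4 CPM in WT and 1.26, 5.95, 3.77, 5.22 and 0.783 CPM in Q. WT replicates 3 and 5 were high and Q replicate 5 was lowest. The list median of -0.38 over 11 members was -0.14 without Q replicate 5 and -0.60 without WT replicate 2, and it had the other sign, at 0.05, without WT replicate 5. In all, 0 members had an unadjusted p under 0.05. The log2 fold change of Ucp1, the uncoupling protein of brown fat, was -0.89 (SE 1.13), and that of Cfd, a complement protease of fat, -0.67 (SE 0.915). Without WT replicate 5 they were -0.10 and -0.19.

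The 20 lists not described by member held 261 tested genes, of which 3 were higher and 3 lower at an unadjusted p under 0.05. Among the 19 of them with at least 5 tested members, medians ran from -0.12 for immediate early genes to 0.11 for erythroid genes. The former was 0.05 without WT replicate 4 and the latter -0.23 without Q replicate 5. Proximal tubule, thick ascending limb, podocyte and endothelial markers had medians of -0.09, 0.00, 0.02 and -0.01. Over all 33 lists, 417 different genes were tested, 0 were called by edgeR, and 7 were higher and 17 lower at an unadjusted p under 0.05, where 1.27% and 1.67% of all tested genes were.

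**Figure D4:**
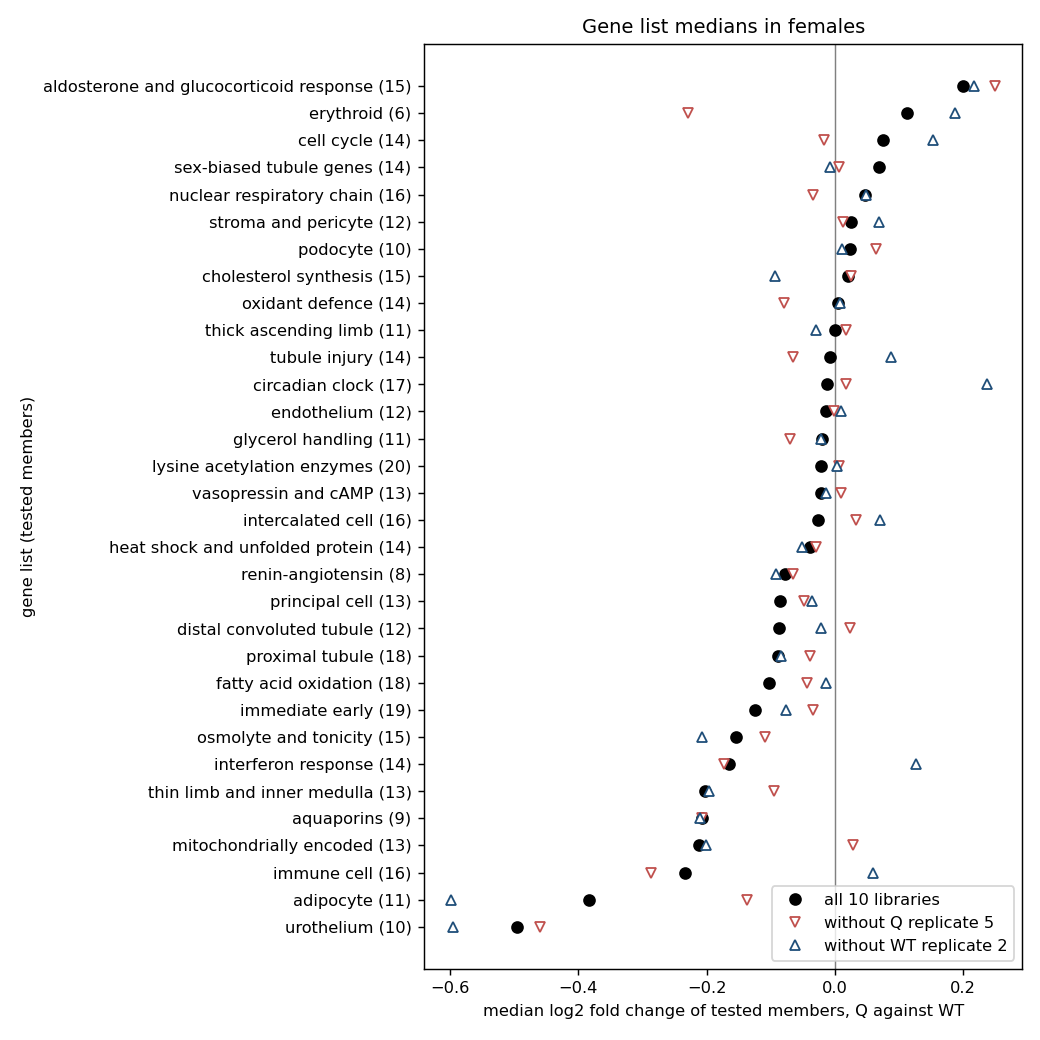
Median log2 fold change of Q against WT in females (horizontal axis) of each gene list with at least 5 tested members, with the number tested in parentheses. Black circles use all 10 libraries and open triangles leave out Q replicate 5 or WT replicate 2; urothelial genes lie between -0.59 and -0.46, while the immune median goes from -0.23 to 0.06 without WT replicate 2 and the mitochondrial one from -0.21 to 0.03 without Q replicate 5.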

How the data were processed

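The authors deposited whole-number counts for each gene, unscaled. Per the file headers they were made with featureCounts of Subread 2.0.1 on exons of the Ensembl 107 annotation of GRCm39, for paired fragments and with no strand option, so overlapping and antisense genes are not separated. The submitters' processing notes also name SAMtools 1.6, Trim Galore 0.6.7 and DESeq2 1.38.3, and an aligner is not given in the sources used here. Every column belonged to a labelled sample (28 libraries, 56748 genes).

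In R 4.3.3, edgeR 4.0.16 (filterByExpr, TMM, robust quasi-likelihood) fitted 6 group means to all 28 libraries, which left 17573 genes with 99.91% of the counts, 17173 of them with a symbol, and 22 residual degrees of freedom. P-values were adjusted by Benjamini-Hochberg over all tested genes. The male comparison and the difference between the sexes came from the same fit. Levels are TMM-scaled CPM. Fold changes are log2, Q over WT, and SE was obtained by dividing the size of the fold change by the root of the F statistic, an approximation. Libraries of a group differed by more than sampling noise (chi-square per degree of freedom 6.65 to 107), so none was counted as a duplicate.

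Named genes were Aqp3, the tested aquaporins, 12 per direction with the smallest p at a mean of at least 1 CPM, and up to 4 per described list. Other list members in the text were added after their values were seen. Genes without an established name were not named. The members and the 33 lists (437 genes, 1 not in the table) were chosen with earlier results of these data known, and the choice of lists described by member came after their values were seen. Lists are therefore described by counts and medians, and a planned permutation test of summed levels is not reported. Chromosomes came from GENCODE M21 by gene identifier, and promoters from RefSeq on GRCm38.p6, which is older than the build of the counts. The model was tested on simulated data. Alternatives were DESeq2 1.42.0, its size factors, no filter, the 10 libraries alone, a replicate block, limma 3.58.1 voom with quality weights, mitochondrial genes left out, and libraries left out.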

Additional observations from a re-analysis of the deposited data

Results flagged for a closer look

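In groups of 5 libraries, a library was singled out where its gap to the nearest other exceeded 0.71 of the group's range. This occurred in 32 of 262 groups tested (12.2%), where chance gives about 1 in 20, and genes of a list share libraries. By library there were 8 in Q replicate 2, 8 in Q replicate 5, 6 in WT replicate 2, 4 in WT replicate 4, 2 each in Q replicate 3 and WT replicate 3, and 1 each in Q replicate 4 and WT replicate 1.

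Q replicate 2 was the highest Q library for Akr1b3 (186 CPM against 46.2 to 56.9 in the others), Cryab (164 against 92.2 to 111), Elf5 (7.17 against 3.09 to 3.58), Slco4a1 (24.2 against 10.8 to 13.2), Upk3a (7.95 against 2.48 to 3.97) and Map6 (1.67 against 0.755 to 0.982). It was also highest in the summed thin limb and inner medulla genes (852 against 538 to 606 CPM) and urothelial genes (84.2 against 31.8 to 44.4 CPM). These are 8 measures of the same medullary and pelvic genes and of genes that stood with them.

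Q replicate 5 was lowest in the share of mitochondrially encoded counts (3.94% against 10.8 to 11.6% in the other Q libraries), in their sum (28500 CPM), in mt-Nd1 (4880 against 11900 to 14700 CPM), mt-Cytb (5210 against 20300 to 22700 CPM) and mt-Co3 (15.4 against 53.4 to 60.9 CPM), and in the deacetylase Sirt2 (55.8 against 87.2 to 91.0 CPM). It was highest in Katnbl1 (14.9 against 8.32 to 9.95 CPM) and Slc5a3 (200 against 149 to 161 CPM).

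WT replicate 2 was lowest in Xist (0.515 against 282 to 300 CPM in the other WT libraries). It was highest in Aqp6 (146 against 66.3 to 75.1 CPM), C1qc (40.6 against 17.6 to 21.2), Gbp2 (44.1 against 12.3 to 16.3), and the immune (882 against 412 to 447) and interferon (473 against 258 to 283) sums.

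Of the rest, WT replicate 4 was lowest in Creb1 (24.2 CPM), Hdac1 (66.8), stroma and pericyte genes (309) and lysine acetylation enzymes (783). WT replicate 3 was lowest in mt-Nd1 (11700 CPM) and in the mitochondrially encoded sum (88000 CPM). Q replicate 3 was highest in Zbtb16 (15.3 CPM against 1.17 to 4.39) and in immediate early genes (767 against 425 to 490). Q replicate 4 was lowest in Tsc22d3 (25.2 against 38.4 to 41.4 CPM). WT replicate 1 was highest in Fkbp5 (25.5 against 22.7 to 23.5 CPM).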

How the results depend on the processing

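The count of called genes was 0 in every edgeR and voom setting run and 1 with DESeq2 (Lamb3). Leaving out each library in turn gave 0 to 0 called genes and 353 (without Q replicate 5) to 743 (without Q replicate 4) with an unadjusted p under 0.05, and 0 to 0 for the difference between the sexes. The smallest edgeR adjusted p was 0.0998 without Q replicate 2 and the voom one 0.0617, with 1034 genes at an unadjusted p under 0.05 there and 2024 of 40486 with no filter. The replicate numbers did not pair the libraries (same-number correlations of deviations -0.077 to 0.104, with 1 of 5 WT libraries closest to its own number), and the replicate block gave 0 called genes and 463 genes with an unadjusted p under 0.05.

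Of 1723 values of single genes under alternatives, 51, in 17 genes, had the sign opposite to the reported one. Aqp6 had 0.0035 with the replicate block, 0.0695 with voom and 0.37 without both libraries, and -0.18 to 0.27 when single libraries were left out. Without both libraries Gbp2 had 0.0018, Ifit3 0.0451, Nr3c2 0.0206, Cldn19 -0.0506, Ep300 0.169, Gk -0.016, Pck1 -0.21, Scnn1a 0.123, Scnn1b 0.0937 and Scnn1g 0.107. With voom Ep300 had 0.152, Nfat5 0.0238, Scnn1a 0.0899 and Scnn1g 0.022. Scnn1g also had 0.0076 in the 10 libraries alone and 0.0046 with no filter. Leaving out single libraries gave -0.35 to 0.11 for Ifit3, -0.0244 to 0.56 for Aqp8, -1.28 to 0.19 for Cidea and -0.99 to 0.0527 for Plin1. It gave -0.0802 to 0.0283 for Adcy6, -0.0231 to 0.104 for Prkaca, -0.0165 to 0.151 for Cldn19, -0.129 to 0.11 for Ep300, -0.204 to 0.0229 for Nfat5 and -0.0986 to 0.203 for Pck1. For Scnn1a, Scnn1b and Scnn1g it gave -0.0997 to 0.0956, -0.208 to 0.0184 and -0.0505 to 0.0655. The log2 ratios of summed levels ran from -0.50 to -0.30 for inner medulla (-0.0827 without Akr1b3 and Cryab, also added after seeing the data), -0.78 to -0.38 for urothelium, -0.25 to -0.13 for osmolyte and -0.30 to 0.00 for mitochondrially encoded genes, where 8 of the 10 libraries left out were added after seeing the data. Of 593 list medians 3 moved beyond the spread of the libraries. That spread is the SD of single-library list medians within groups, so a median could change sign without counting as moved. With single libraries left out, the immune median ran from -0.34 to 0.06, interferon from -0.21 to 0.13 and mitochondrially encoded from -0.27 to 0.03. Erythroid ran from -0.23 to 0.32 and adipocyte from -0.99 to 0.05, while urothelium stayed negative, at -0.77 to -0.39. The interval lay inside a 2-fold change for 99% of genes at a mean of 10 CPM or more and for 81.6% of all genes, so that such intervals were less common among genes of low level.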
